A study of Drosophila melanogaster with 2 samples.

Results

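Polycomb repressive complex 2 (PRC2), the Pho repressive complex (PhoRC) and the proteins that work beside them were represented by 10 genes, taken by symbol from a list of their subunits and recruiters: E(z), esc, escl, Su(z)12, Caf1-55, Jarid2, pho, phol, Sfmbt and Asx. All 10 were found by symbol in the Ensembl BDGP6 annotation, out of 18277 genes of which 13968 are protein-coding. At each gene the ChIP-seq regions of ADD1 (also called CG8290), an ADD-domain protein that partners heterochromatin protein 1, were taken from the authors' lists if their summits fell inside the gene or no more than 500 bp from its start. The samples were whole Drosophila melanogaster embryos aged 0 to 14 hours, both sexes pooled, from a transgenic line that stably carries CG8290 fused to GFP at its C terminus. They form 1 group of 2 biological replicates, numbered 2 and 3, with no other genotype or treatment, and the promoter that drives the transgene is not given in the sources used here. A free description attached to both samples speaks of an input control, while the antibody and assay labels name CG8290 ChIP, so the values below are those of libraries labelled as ChIP of CG8290. Embryos of this age range mix many tissues, and no input or mock sample was analysed here.

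Polycomb group proteins keep developmental genes such as the homeotic genes silent. PRC2 methylates lysine 27 of histone H3: E(z) is the methyltransferase, esc and its paralog escl are WD-repeat proteins that stimulate it and read the mark, Su(z)12 is a structural core subunit, Caf1-55 is a histone-binding WD-repeat protein also found in other chromatin complexes, and Jarid2 is an accessory subunit. PhoRC joins a zinc-finger DNA-binding protein, pho or its paralog phol (relatives of mammalian YY1), to Sfmbt, an MBT-repeat protein, and brings Polycomb complexes to their response elements. Asx is the partner of the ubiquitin hydrolase Calypso in the complex that removes ubiquitin from histone H2A.

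ADD1-GFP peaks of the final list lay at the start sites of 4 of the 10 genes, the structural and catalytic PRC2 genes Su(z)12 and E(z) and the PhoRC genes pho and Sfmbt. The share of 40% stands beside 12.6% of all protein-coding genes (1754 of 13968) with such a peak. The final list, the optimal IDR-thresholded peaks, held 2478 regions. IDR is the irreproducible discovery rate, a measure of how well ranks repeat between replicates. The lowest signal of the list, 132.9, was also that of region 2478 of the pooled list described below. Each optimal peak at these genes had the same rank in both lists, so the lists are not independent. Of the 2478 optimal peaks, 1709 overlapped the 2478 strongest regions of both replicates. When gene bodies were counted as well, the same 4 genes had a peak, beside 15.5% of protein-coding genes. The other 6 genes (esc, escl, Caf1-55, Jarid2, phol and Asx) had no optimal peak at a start site or in the body. In the larger pooled list, 30000 regions that hold background along with peaks, 8 of the 10 genes had a region at a start site, beside 48.9% of protein-coding genes. The authors' −log10 q-value was 0.258 for the escl region and 0.138 for that of Jarid2, beside 3.145 for the E(z) peak. Whether such weak regions are peaks or background was not tested. At a start site or in the body the count was again 8, beside 56.8%. Caf1-55 and Asx were the genes without a pooled region. With a list of 10 genes that was drawn up with earlier results of these data known, these shares describe the list and no test was run on them.

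Sequences upstream of 8 of the genes are shown because most of the peaks lie at promoters shared with a neighbour. The first 3 hold an optimal summit and the fourth a pooled summit, and the last 4 are the gaps to a neighbour that starts on the other strand. Each was read from the RefSeq sequence of the dm6 assembly on the strand of the named gene, running towards its start site, and holds no annotated exon. Capitals mark matches, on either strand, to any of 8 motifs searched: GCCAT (the core of the Pho site), GAGAG (GAF), TATCGATA (the DRE element), CGATA (the core bound by BEAF-32, which is also contained in the DRE), GGTCACAC (the M1BP core), CACGTG (E-box), GTGTG (a Combgap-type repeat) and TGAGTG (Zeste-type). The 208 bp between Su(z)12 and Pfdn6 (chr3L:19923463-19923670) hold the weaker Su(z)12 summit and 1 Pho core match. The 261 bp upstream of Sfmbt between CG43925 and CG5439 (chr2L:13176889-13177149) and the 300 bp around the pho summit (chr4:1181813-1182112) hold no match of a Pho core, and the pho stretch has 1 BEAF-32 core. The 300 bp around the pooled summit upstream of esc (chr2L:11829423-11829722), in an intron of Pde1c, hold 1 Pho core, 1 GAF motif and 1 Combgap-type repeat. The 15 bp between E(z) and Cnep1r2 (chr3L:10638131-10638145), the 246 bp between Caf1-55 and CG31344 (chr3R:15225330-15225575), the 72 bp between Jarid2 and Uch-L5 (chr3L:9476966-9477037) and the 36 bp between phol and CG3552 (chr3L:9456282-9456317) show how close the opposite start sites are. Of these 4 gaps, that of Caf1-55 has 3 BEAF-32 cores and that of Jarid2 has 2 Pho cores.
Su(z)12 to Pfdn6 gap, with optimal summit: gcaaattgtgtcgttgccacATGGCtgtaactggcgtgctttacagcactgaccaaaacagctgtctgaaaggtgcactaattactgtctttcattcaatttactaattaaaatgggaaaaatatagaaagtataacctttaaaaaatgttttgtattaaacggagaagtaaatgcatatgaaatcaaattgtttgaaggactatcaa
Sfmbt upstream gap, with optimal summit: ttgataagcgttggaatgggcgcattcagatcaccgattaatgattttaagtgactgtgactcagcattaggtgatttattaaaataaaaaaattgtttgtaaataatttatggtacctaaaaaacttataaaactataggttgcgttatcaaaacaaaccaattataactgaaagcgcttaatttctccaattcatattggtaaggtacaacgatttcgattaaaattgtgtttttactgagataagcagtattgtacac
pho upstream, around optimal summit: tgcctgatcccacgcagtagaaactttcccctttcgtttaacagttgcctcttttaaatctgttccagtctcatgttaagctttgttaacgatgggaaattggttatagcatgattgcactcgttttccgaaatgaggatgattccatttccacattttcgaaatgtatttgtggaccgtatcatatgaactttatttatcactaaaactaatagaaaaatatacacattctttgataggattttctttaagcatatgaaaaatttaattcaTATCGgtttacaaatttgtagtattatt
esc upstream, around pooled summit: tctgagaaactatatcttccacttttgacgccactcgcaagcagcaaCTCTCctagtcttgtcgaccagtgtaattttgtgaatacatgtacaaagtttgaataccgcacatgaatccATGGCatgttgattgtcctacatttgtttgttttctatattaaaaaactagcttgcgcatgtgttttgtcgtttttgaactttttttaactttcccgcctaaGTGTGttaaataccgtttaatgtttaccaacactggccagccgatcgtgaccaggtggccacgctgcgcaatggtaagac
E(z) to Cnep1r2 gap: acgggctgcgtttct
Caf1-55 to CG31344 gap: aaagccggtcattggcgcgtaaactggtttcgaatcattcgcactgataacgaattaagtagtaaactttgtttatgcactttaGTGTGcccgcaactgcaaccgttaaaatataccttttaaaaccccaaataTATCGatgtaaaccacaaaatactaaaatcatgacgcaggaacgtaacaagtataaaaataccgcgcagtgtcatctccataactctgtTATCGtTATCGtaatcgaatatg
Jarid2 to Uch-L5 gap: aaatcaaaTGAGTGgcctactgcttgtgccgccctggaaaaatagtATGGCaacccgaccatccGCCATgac
phol to CG3552 gap: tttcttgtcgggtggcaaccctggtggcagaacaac

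Su(z)12 (FBgn0020887, dm6 chr3L:19918242-19923462, minus strand) had the highest signal of the 10 genes, with an optimal peak of signal 221.7 at rank 807 (chr3L:19923207-19923650). Signal is the value the authors' caller gave to a region; its scale is not stated, so it is read only within a list, and ranks run from 1 for the highest signal. The summit lay 33 bp downstream of the Su(z)12 start, in the 5′ untranslated region. The region ranked 697 in replicate 2 (signal 120.7) and 1356 in replicate 3 (92.9), and the summits of the replicates were 2 bp apart. Its signal was 1.67 times that of the lowest optimal peak, and 1.79 and 1.29 times that of region 2478 of the replicate 2 and replicate 3 lists. A further optimal summit stood 167 bp upstream (chr3L:19923407-19923850, signal 140.5, rank 2233), between Su(z)12 and Pfdn6, a prefoldin subunit gene that starts 209 bp away on the other strand. This weaker summit ranked 1271 in replicate 2 and 8512 in replicate 3, so that it lay among the 2478 strongest regions of replicate 2 and not of replicate 3. Since both start sites lie within 500 bp of both summits, the lists do not assign the peaks to Su(z)12 or to Pfdn6. The protein-coding genes next to Su(z)12 in the order of strongest start-site peaks were hng3 above it (signal 222.1) and MRP and Pih1D1, which share a peak, below it (221.5).

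E(z) (FBgn0000629, chr3L:10634575-10638130, minus strand), the gene of the methyltransferase, had the lowest signal of the 4 genes when each is taken at its strongest peak. The peak at chr3L:10637860-10638303 had a signal of 145.4 and rank 2096, or 1.09 times the lowest optimal signal of 132.9. Its summit lay in the 5′ untranslated region, 48 bp downstream of the upstream start site of E(z) and within 500 bp of the start of Cnep1r2, which is 16 bp from that start on the other strand. As at Su(z)12, the lists do not assign the peak to E(z) or to its neighbour. The rank was 1441 in replicate 2 (signal 88.3) and 4109 in replicate 3 (56.2), with summits 12 bp apart. In replicate 3 the signal was 0.784 times that of region 2478, so in that replicate E(z) was not among the 2478 strongest regions. In the order of strongest peaks E(z) stood between SMC6 and CG6204, which share the peak of rank 2095, and Ide and RhoBTB, which share that of rank 2098.

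The paralogs esc and escl had pooled regions below the optimal list. The region at esc (FBgn0000588, chr2L:11827204-11829405, minus strand), 167 bp upstream of its start, had a signal of 91.5 and rank 4935. It ranked 8350 in replicate 2 and 5409 in replicate 3, with summits 51 bp apart. The region at escl (FBgn0032391, chr2L:11990927-11992848, plus strand), 368 bp upstream in a coding exon of dgt2, had a signal of 43.6 and rank 18699, with ranks of 24535 in replicate 2 and 16362 in replicate 3. The strongest escl summits of the replicates were 345 bp apart, and replicate 3 had a further region 438 bp upstream at rank 19054, nearer to the summit of replicate 2. The esc region ranked above that of escl in each of the 3 lists, and neither reached the 2478 strongest regions of any list.

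Jarid2 and Caf1-55 had no region among the 2478 strongest of any list. The pooled region at Jarid2 (FBgn0036004, chr3L:9477038-9486530, plus strand), 48 bp upstream of its start and shared with Uch-L5, had a signal of 36.6 and rank 25119, which is 0.275 times the lowest optimal signal. It ranked 16887 in replicate 3, and replicate 2 had none within 500 bp of the start. Caf1-55 (FBgn0263979, chr3R:15225576-15227564, plus strand) had a start-site region in replicate 3 alone among the lists, 100 bp upstream at rank 16205. The nearest pooled summit to its start was 2338 bp away, at rank 16444. Both genes lie head to head with a neighbour, Jarid2 at 73 bp from Uch-L5 and Caf1-55 at 247 bp from CG31344.

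**Figure D1:**
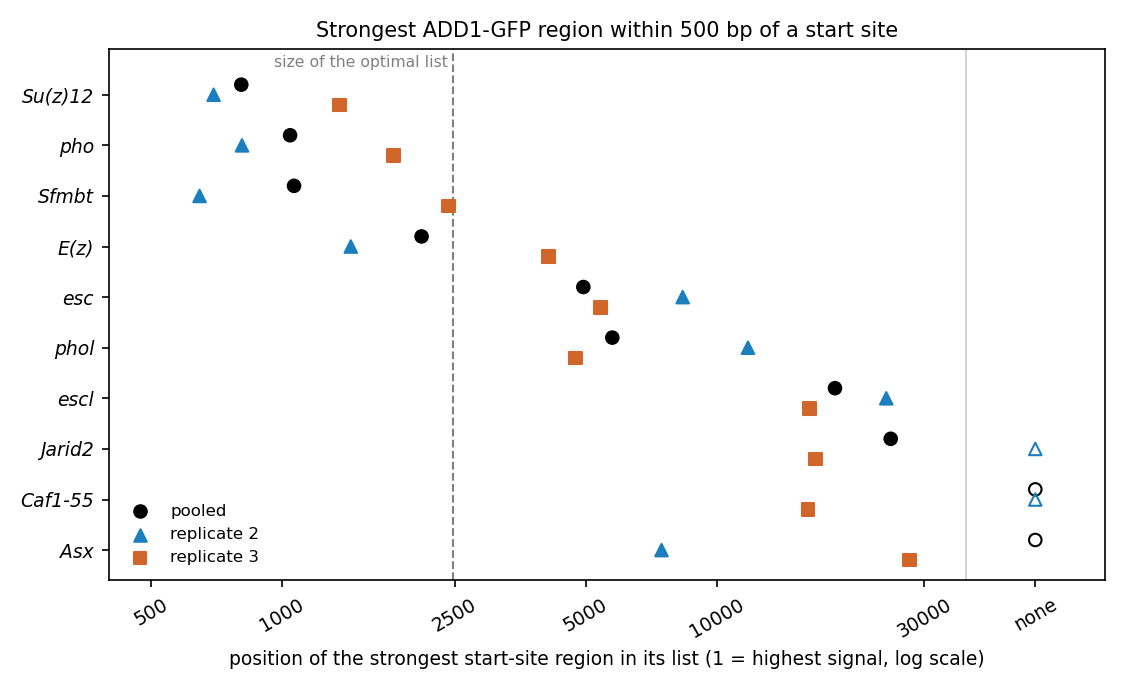
Position in the list (log scale, 1 for the highest signal) of the strongest region within 500 bp of a start site of each gene, for the pooled list (circles), replicate 2 (triangles) and replicate 3 (squares); hollow symbols at the right mean that the list had no such region. The pooled regions of Su(z)12, pho, Sfmbt and E(z) lie left of the dashed line at 2478, the size of the optimal list, and the replicate 3 region of E(z), at 4109, lies right of it.

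Of the DNA-binding paralogs, pho had an optimal peak and phol did not. The pho peak (FBgn0002521, gene at chr4:1172469-1181628, minus strand; peak at chr4:1181740-1182183) had a signal of 195.6 and rank 1045. It ranked 810 in replicate 2 (signal 113.0) and 1806 in replicate 3 (82.0), with summits 27 bp apart, and its signal was 1.47 times the lowest optimal signal. The summit lay 334 bp upstream of pho, between genes, with no other start site within 500 bp. It was the 1 optimal summit of the 5 at these genes that belonged to a single gene. Of the 1368 start-site peaks of protein-coding genes, 745 (54.5%) belonged to a single gene. In the order of strongest peaks pho stood between alphaTub84B (195.8) and Galphai (195.4).

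The region at phol (FBgn0035997, chr3L:9452803-9456281, minus strand) had a signal of 84.0 and rank 5753, at 142 bp downstream of the start in the 5′ untranslated region. It ranked 11796 in replicate 2 and 4730 in replicate 3, with summits 6 bp apart. The start sites of CG3552, 37 bp away on the other strand, and of asRNA:CR45873 share this region. Its signal was 0.632 times that of the lowest optimal peak, and 0.464 and 0.727 times that of region 2478 in replicates 2 and 3. In all 3 lists pho ranked above phol.

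Sfmbt (FBgn0032475, chr2L:13169649-13176785, minus strand), the PhoRC partner of both, had a peak whose signal was close to that of pho. The peak at chr2L:13176788-13177231 had a signal of 194.5 and rank 1067, with the summit 225 bp upstream of the outer start site. CG5439 starts 365 bp upstream of that start site on the other strand, so the summit lay nearer to the start of CG5439. With both starts within 500 bp of the summit, the peak is not assigned to Sfmbt or to CG5439. It ranked 647 in replicate 2 (signal 124.1), the best rank of any of the 10 genes there, and 2416 in replicate 3 (72.5), with summits 20 bp apart. In replicate 3 its signal was 1.01 times that of region 2478, just inside the strongest 2478, and a further region of that replicate lay 395 bp upstream at rank 6241, in the 5′ untranslated region of CG5439. Its neighbours in the order of peaks were RpL31 (194.9) above and Trmt6 and Ent2, sharing a peak (194.2), below.

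Asx (FBgn0261823, chr2R:14503958-14512493, plus strand) had no pooled region at its 3 start sites or in its 8536 bp. Replicate 2 had a region 88 bp downstream of a start site, in the 5′ untranslated region, at rank 7465, and replicate 3 had one 27 bp upstream of a start site at rank 27761, and these summits were 115 bp apart. The nearest pooled summit to a start site was 9085 bp away and the nearest optimal one 14885 bp away.

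**Figure D2:**
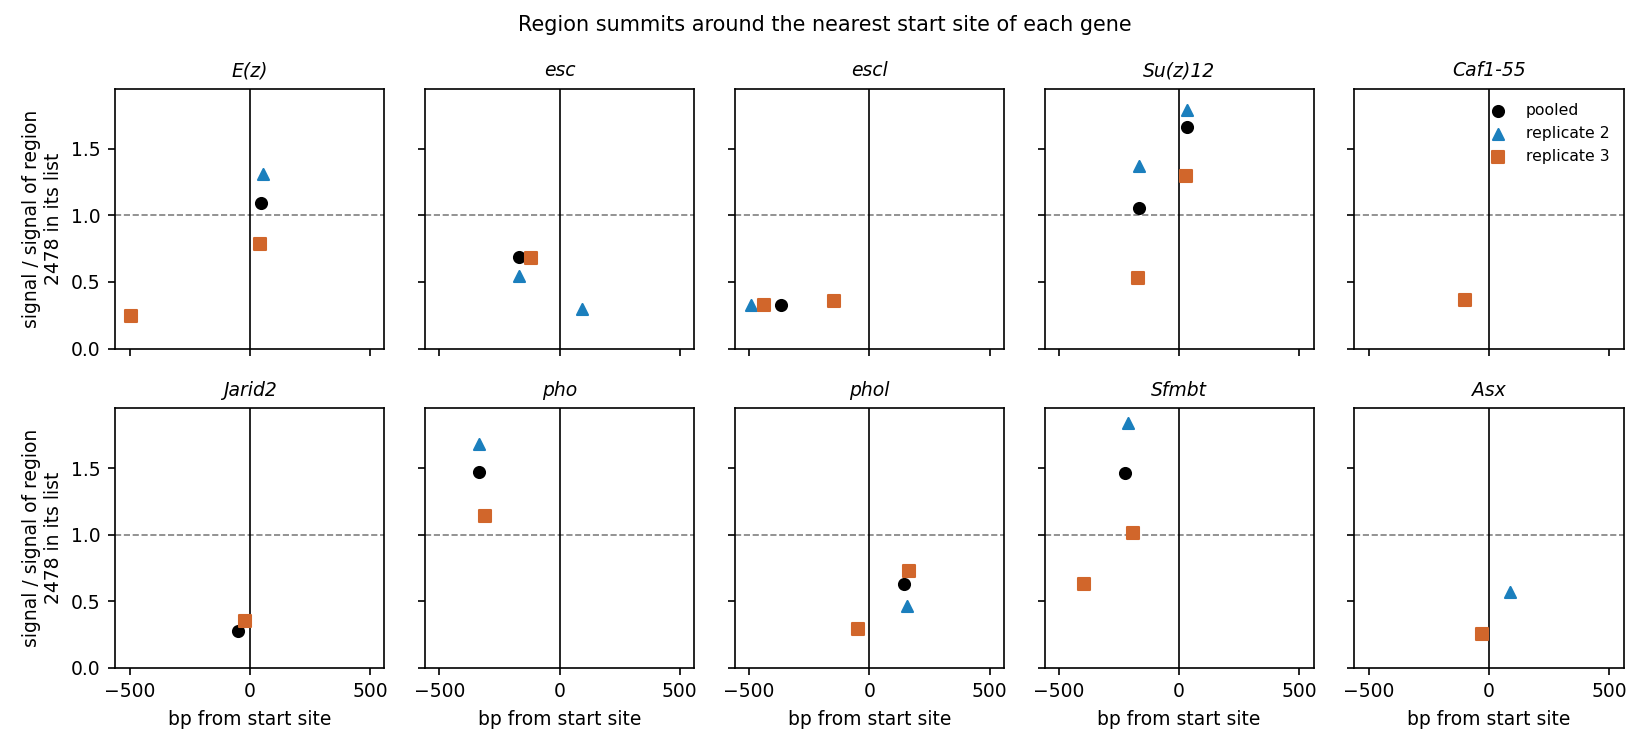
Summits within 500 bp of a start site of each gene, by distance from the nearest start site in bp (negative upstream) and by signal divided by the signal of region 2478 of the same list, for the pooled list, replicate 2 and replicate 3. Values above the dashed line at 1 are among the 2478 strongest regions; Su(z)12 reaches 1.67 in the pooled list, and E(z) is at 0.784 in replicate 3.

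The replicates placed the 5 optimal summits, 2 of them in overlapping regions at Su(z)12, closely but ranked them differently. All 5 ranked higher in replicate 2, with a median rank of 810 there and 2416 in replicate 3, each taken from the region with the nearest summit. Over the 1365 start-site peaks of protein-coding genes that overlap a region of both replicate lists, 50.3% ranked higher in replicate 2, and the median ranks were 1241 in replicate 2 and 1230 in replicate 3. Of the other genes, esc, escl and phol ranked higher in replicate 3, Jarid2 and Caf1-55 had a start-site region in replicate 3 and not in replicate 2, and Asx ranked higher in replicate 2. Summits of the replicates at the 5 peaks had a median distance of 12 bp, beside 27 bp over all those peaks. Among each replicate's own 2478 strongest regions, Su(z)12, E(z), pho and Sfmbt had a start-site region in replicate 2 (4 of 10, beside 12.3% of protein-coding genes), and Su(z)12, pho and Sfmbt in replicate 3 (3 of 10, beside 12.4%). In the full lists 8 of the 10 genes had a start-site region in replicate 2, beside 45.5% of protein-coding genes, and all 10 in replicate 3, beside 50.5%. Read depth of the replicates is unknown, and its part in these ranks was not tested.

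Most of the 10 genes stand close to an oppositely oriented neighbour, a setting in which peaks were common across the genome. A start site of another gene on the other strand lay within 500 bp of 7 of the 10 (all but esc, escl and pho), beside 30.8% of protein-coding genes (4300 of 13968). Of those 7 genes, 3 had an optimal start-site peak; among all protein-coding genes with such a neighbour 24.2% did, against 7.37% of the 9668 without. Start sites of both strands lay within 500 bp of 4 of the 5 optimal summits, beside 42.4% of the 1368 start-site peaks of protein-coding genes. Of those summits, 2 belong to the overlapping regions at Su(z)12, so that promoter counts more than once. The part of this arrangement in the count of 4 was not tested. Summits of Su(z)12 (the stronger) and E(z) lay downstream of the start, whereas 86.2% of the 1754 genes with a peak had their strongest summit upstream, at a median distance of 136 bp to either side.

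The DNA under the peaks was poor in G and C. Within 100 bp of the summit, GC content was 33.8% and 36.8% at the stronger and weaker Su(z)12 summits, 30.3% at E(z), 30.8% at pho and 25.9% at Sfmbt, all below the median of 38.3% over the 2478 optimal summits. At genes with a pooled region alone it was 34.3% at esc, 42.3% at phol, 44.3% at Jarid2 and 53.7% at escl, beside a median of 41.8% over the 30000 pooled summits. Motif matches are given beside the shares over all optimal summits, and no test was run on these 5 windows. The Pho core stood within 100 bp of 1 of the 5 optimal summits, the weaker one of Su(z)12, the GAF motif at 1 (E(z)) and the Combgap-type repeat at 1 (the weaker of Su(z)12). Over all optimal summits 28.4% had a Pho core, 28.1% a GAF motif and 40.8% a Combgap-type repeat in the same window. The DRE (5.49% of optimal summits), BEAF-32 core (32.9%), M1BP core (3.19%), E-box (2.70%) and Zeste-type motif (9.93%) had no match in these 5 windows. At the pooled summits, esc had 1 Pho core and 1 Combgap-type match, Jarid2 had 2 Pho cores and 1 Zeste-type match, and phol had 6 Combgap-type matches, while escl had no match. Over all 30000 pooled summits, 33.3% had a Pho core, 38% a Combgap-type repeat and 9.94% a Zeste-type motif in the same window. A match is a string of letters and not a measured site.

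Beyond the start sites, pho was the member with a series of weak regions in its body. The pooled list held 6 regions more than 500 bp from its start, or 0.655 per kb of its 9160 bp, and the lists of replicates 2 and 3 held 5 each. The strongest lay 1150 bp downstream of the start, in the long intron before the main coding exons, with a signal of 109.3 at rank 3606, and it ranked 3545 in replicate 2 and 3640 in replicate 3. Regions near 1928 bp (rank 11511) and 5982 bp (rank 13057) downstream also had a counterpart in each replicate. None was in the optimal list. The gene lies on chromosome 4, which is small and largely heterochromatic, and there such regions were usual: 62 protein-coding genes of at least 5 kb on that chromosome had a median of 0.498 per kb, beside 0.140 over the 3492 such genes of the genome, and 17 of the 62, pho included, were at or above the value of pho. On chromosome 4, 37.5% of protein-coding genes (30 of 80) had an optimal start-site peak. The other genes, 1922 to 9493 bp long, had no pooled region in their bodies beyond 500 bp of a start site. Jarid2, at 9493 bp close to pho in length, had 1 such region in each replicate list, at ranks 20900 and 22857.

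**Figure D3:**
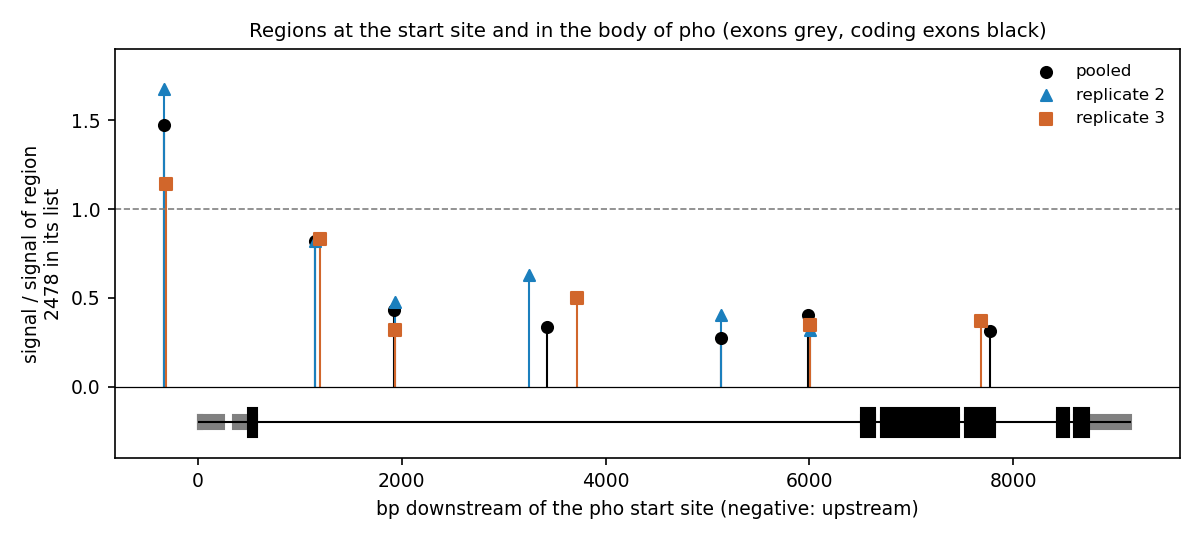
Regions of the pooled list, replicate 2 and replicate 3 at pho, by distance of the summit from its start site in bp and by signal divided by that of region 2478 of the same list, with the exons below. The upstream peak stands above the dashed line at 1 in all 3 lists, and the body regions stand below it, with the pooled value at 1150 bp reaching 0.823.

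Related genes of the Polycomb system that are not among the 10 carried optimal start-site peaks in 5 of 29 cases (17.2%), beside the 12.6% of all protein-coding genes. In PRC1, the complex that binds methylated histone H3 and ubiquitylates H2A, ph-p had a peak of signal 709.0 (rank 32) and Su(z)2 one of 171.0 (rank 1457), while Pc, ph-d, Psc and Sce had none. Among candidate DNA-binding recruiters, psq had a peak of 204.7 (rank 957) and Trl, which encodes GAF, one of 187.8 (rank 1170), whereas Spps, cg, lolal, Dsp1, grh and z had none at a start site. Among antagonists of silencing, nej, the CBP acetyltransferase gene, had a peak of 146.8 (rank 2054), and Utx, trx and ash1 had none at a start site. The PRC2 accessory genes Pcl and jing, the Asx partner gene caly (Calypso), and Scm, E(Pc), sxc, mxc, crm, corto, Kdm2 and l(3)mbt had none at a start site. With gene bodies counted, 9 of the 29 (31.0%) had an optimal peak, beside the 15.5% of protein-coding genes. Gene length was not taken into account in these shares, and its part in them was not tested. The further 4 genes were jing with 8 peaks in its body, Kdm2 with 3, trx with 2 and grh with 1. Any pooled region stood at a start site of 26 of the 29 (89.7%), and caly, Scm and Sce had none there. The share of all protein-coding genes with such a region was 48.9%. At caly, replicate 2 had a start-site region at rank 3872 (signal 52.9), and replicate 3 had none. The signals of pho (195.6) and Sfmbt (194.5) lay between those of psq and Trl, and that of Su(z)12 (221.7) lay above psq and below ph-p.

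**Figure D4:**
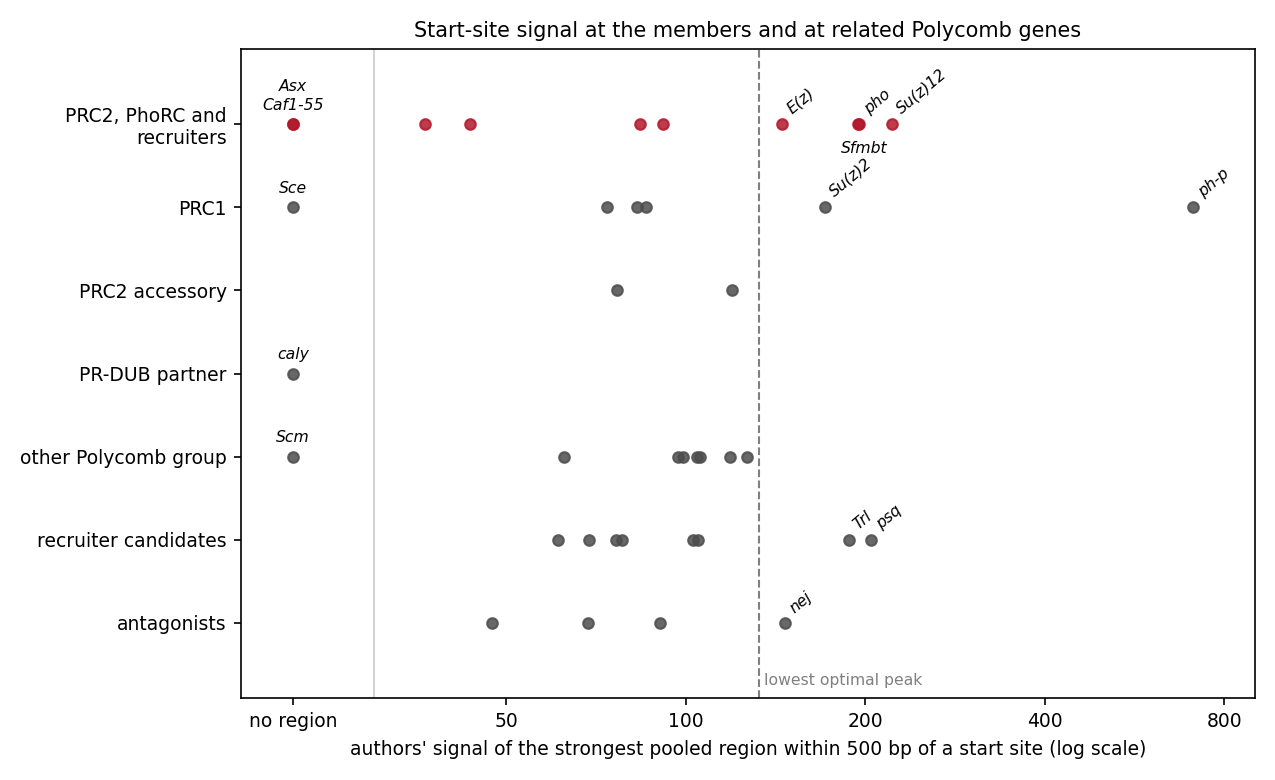
Authors' signal (log scale) of the strongest pooled region whose summit is at most 500 bp from a start site, for the 10 genes (top row) and for 29 related Polycomb genes by role; each point is a gene, named where it passes the lowest optimal signal of 132.9 (dashed line) or has no pooled region. Su(z)12, pho, Sfmbt and E(z) pass the line in the top row, and ph-p has the highest signal at 709.0.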

How the data were processed

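ChIP-seq of CG8290 (ADD1) fused to GFP was deposited for 2 biological replicates, with fragments of 200 to 800 bp per the labels. The authors deposited 4 region lists in dm6 (per the file headers and labels): 30000 regions for each replicate, 30000 for the pooled replicates and 2478 optimal IDR-thresholded peaks. The deposited signal per region has no stated scale, and the deposited −log10 q-value was saturated (1690 optimal peaks at the highest value, 3.53) and not used for ranking. Read depth is unknown, and for the aligner, caller and IDR cutoff the entry is: not given in the sources used here. Per the deposited text, the lists also derive from a further file shared by both replicates, whose role is not stated.

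Regions were ranked by signal in each list. Gene models were Ensembl release 115, with sequence from RefSeq's dm6 assembly, without transposable elements, on the chromosome arms, X, Y and 4. A summit belonged to a start site within 500 bp. Shares over all protein-coding genes are the background; no test was run, since there is 1 group and the members, gene lists and motifs were chosen with earlier results of these data known. Calypso was matched to caly by its RefSeq synonym. All 10 members are named, with genes that share their summits and those next in the order of peaks. Motifs were counted on both strands within 100 bp of summits. Alternatives were windows of 200 and 1000 bp, the 1239 peaks of highest signal, the list of either replicate by itself, optimal peaks that overlap the 2478 strongest regions of both replicates (1709 at 1 bp of overlap, 1661 at 50% covered) and any overlap in place of the summit. The assignment of summits to start sites was tested on summits planted near isolated genes with 1 start site each. Gene bodies and promoters shared by neighbouring genes were not part of that test. Python 3.11.15, pandas 2.3.3 and matplotlib 3.10.9 were used.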

Additional observations from a re-analysis of the deposited data

How the results depend on the processing

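The stronger Su(z)12 peak and the peaks at pho and Sfmbt were kept in the stronger 1239 optimal peaks, in each replicate's own 2478 strongest regions and among optimal peaks that overlap those of both replicates (called shared here). The weaker Su(z)12 peak, of rank 2233, was outside the stronger 1239, and its own replicate 3 region ranked 8512. It counted as shared because it overlaps the replicate 3 region of the stronger peak. E(z) was lost in the stronger 1239, without replicate 2 and among the shared peaks; its region in the full list of replicate 3 ranked 4109. The count of 4 members was 3 to 4 when a replicate was left out, with or without gene bodies, and 2 with a window of 200 bp, which keeps E(z) and Su(z)12. The share of all protein-coding genes was not computed for windows of 200 or 1000 bp, the stronger 1239, the shared peaks or any overlap. Nor was it computed for gene bodies in single replicates, so counts under these settings have no background beside them. The 5 summits became 3 in the stronger 1239 and with the 200 bp window, and 3 to 5 when a replicate was left out. Related Polycomb genes with a peak numbered 3 in the stronger 1239, 2 with the 200 bp window, 2 among shared peaks under both overlap rules and 4 to 5 when a replicate was left out, where the 5 without replicate 2 include Psc and jing and not psq or nej. Related genes numbered 7 with the 1000 bp window, which adds ph-d and Dsp1, and 6 with any overlap, which adds Dsp1. Members stayed at 4 under both of these settings. Members with a pooled region numbered 5 with the 200 bp window and 8 to 10 when a replicate was left out. Ranks when a replicate was left out ran from 1441 to 4109 for E(z), 697 to 1356 for Su(z)12, 810 to 1806 for pho, 647 to 2416 for Sfmbt, 5409 to 8350 for esc, 4730 to 11796 for phol and 16362 to 24535 for escl, with 16887 for Jarid2, where replicate 2 gave none. Within 50 bp of the 5 summits the GAF motif and the Combgap-type repeat matched 0 times. Within 200 bp, 2 summits had a Pho core, 1 a DRE, 2 a BEAF-32 core and 3 a Combgap-type repeat. Shares over all optimal summits were not computed for motif windows of 50 or 200 bp. At 200 bp the windows of the stronger and weaker Su(z)12 summits overlap, so a match can count for both. The causes of the shifts under all these alternatives were not tested, apart from windows that by construction hold fewer or more bases. Every alternative rested on the same 2 replicates without a control sample. No paired analysis was possible because there is 1 group.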

Other observations

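Around the 10 genes, optimal peaks were unevenly spread. Within 10 kb of phol there were 7 optimal peaks, the most for any of the 10 genes, although its own start had none. Of 13945 protein-coding genes, 23 (0.165%) had 7 or more, and neighbouring genes can count the same peaks. The nearest peak, 1521 bp upstream of phol at CG3437 and CG3552, had a signal of 463.9 and rank 111. It overlaps another optimal region, of rank 1232, that is also among the 7. Others stood 4634 bp upstream at CG3434 and CG44838 (rank 484) and 6129 bp upstream at CG44838 (rank 581). Gene length was not taken into account in these counts.

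Caf1-55, with no pooled region at its start, lay 3961 bp from the summit of rank 22 (signal 830.6) at Art3 and mRpS10. No optimal peak lay within 10 kb of esc, escl, Jarid2 or Asx, as for 55.8% of protein-coding genes. The optimal peak nearest to esc, 12834 bp from its start, had rank 67 (signal 559.8) and lay in a coding exon of Pde1c, the gene whose intron holds esc. The peak nearest to escl, 13397 bp away, had rank 207 (signal 377.6). Near Su(z)12, a peak of rank 2195 lay at Mi-2 and Prp3, 13395 bp from its start, and near Sfmbt a peak of rank 2304 lay at DnaJ-H and Sirt1, 11122 bp from its start.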
